A study of Mus musculus with 6 samples.

Results

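The MHC class I genes described here are 10 genes, taken by their symbols from the 31253 genes of the deposited count tables. They are the classical heavy chains H2-K1 and H2-D1, the non-classical heavy chains H2-Q4, H2-Q6, H2-Q7 and H2-T23, the light chain B2m, the peptide-loading genes Tap1 and Tapbp, and the regulator Nlrc5. All 10 were found in the tables. Their transcripts were counted in peripheral blood mononuclear cells of male mice aged 12 to 13 weeks, in 3 libraries of a control group (Con, intraperitoneal saline) and 3 libraries of a diabetic group (T2D, intraperitoneal streptozotocin, STZ, a toxin of insulin-producing beta cells). The series title names a high-fat diet together with STZ, and the sample labels give neither the diet of the controls nor the strain, nor whether animals were pooled. Nothing in the labels says that the libraries came from separate animals, so p-values speak only of how far these libraries vary, a variation that can be technical.

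MHC class I molecules carry short peptides from inside the cell to its surface, where CD8 T cells read them and natural killer (NK) cells test for their presence. The heavy chain folds with B2m (beta-2 microglobulin) in the endoplasmic reticulum, TAP brings peptides in from the cytosol, and tapasin, encoded by Tapbp, holds the empty heavy chain at TAP until a peptide fits. Nlrc5 is the transactivator of these genes, and interferons raise their transcription in most cell types. Platelets, which lack a nucleus, carry class I molecules and RNA received from megakaryocytes.

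In the GENCODE M21 annotation of GRCm38 (the same build as mm10), 8 of the 10 genes lie on chromosome 17, within 2.12 Mb. H2-K1 lies at chr17:33996017-34000347 on the minus strand, H2-D1 at chr17:35262730-35267499, H2-Q4 at chr17:35379617-35385290, H2-Q6 at chr17:35424850-35430055 and H2-Q7 at chr17:35439155-35443773, all 4 on the plus strand. H2-T23 lies at chr17:36029773-36032855 on the minus strand, and Tapbp (chr17:33915899-33929292) and Tap1 (chr17:34187553-34197225) lie on the plus strand nearer to H2-K1. B2m is on chromosome 2 (chr2:122147686-122153083) and Nlrc5 on chromosome 8 (chr8:94434356-94527272), both on the plus strand. All 10 are annotated as protein-coding, and the identifiers of all 10 in the tables matched the annotation.

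The promoters of 4 of these genes are printed to show how alike H2-Q6 and H2-Q7 are. H2-Q7 passed the test of T2D against Con in B cells and H2-Q6 did not. H2-K1 stands beside them as a classical gene and B2m as a gene outside chromosome 17. The sequences come from RefSeq (GRCm38.p6), end just before the transcription start in both annotations and overlap no annotated exon. They cover chr17:34000348-34000597 (H2-K1, minus strand), chr17:35424600-35424849 (H2-Q6, plus strand), chr17:35438905-35439154 (H2-Q7, plus strand) and chr2:122147437-122147685 (B2m, plus strand). Capitals mark GGGGATTCC, the letters of a kappa B-type site; TTTCACTTC, the letters of an interferon-response type site; TGACG, the core of a CRE-type site; and CCAAT, the core of a Y-box type site. Each was searched on both strands.
H2-K1: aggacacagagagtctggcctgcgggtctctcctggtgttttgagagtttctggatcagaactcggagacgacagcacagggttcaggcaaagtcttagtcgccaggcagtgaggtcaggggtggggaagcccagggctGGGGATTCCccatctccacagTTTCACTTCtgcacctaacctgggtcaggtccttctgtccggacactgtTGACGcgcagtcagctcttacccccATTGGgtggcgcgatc
H2-Q6: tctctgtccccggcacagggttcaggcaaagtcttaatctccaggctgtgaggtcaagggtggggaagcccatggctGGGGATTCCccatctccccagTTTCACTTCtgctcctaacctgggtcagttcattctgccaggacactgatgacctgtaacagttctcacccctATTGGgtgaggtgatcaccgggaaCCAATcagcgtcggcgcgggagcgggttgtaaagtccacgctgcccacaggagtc
H2-Q7: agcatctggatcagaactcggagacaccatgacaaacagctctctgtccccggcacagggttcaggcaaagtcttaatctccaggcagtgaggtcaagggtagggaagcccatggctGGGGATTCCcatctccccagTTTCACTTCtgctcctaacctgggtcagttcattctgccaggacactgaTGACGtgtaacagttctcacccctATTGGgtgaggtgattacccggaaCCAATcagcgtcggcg
B2m: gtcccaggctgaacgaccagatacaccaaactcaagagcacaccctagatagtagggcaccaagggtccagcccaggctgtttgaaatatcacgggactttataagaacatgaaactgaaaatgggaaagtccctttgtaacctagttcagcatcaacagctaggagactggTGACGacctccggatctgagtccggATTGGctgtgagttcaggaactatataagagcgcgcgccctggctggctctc
H2-Q6 and H2-Q7 were identical at 205 of 211 aligned positions (97.2%), and H2-Q7 and H2-K1 at 172 of 228 (75.4%). The table held promoters of 9 of the 10 genes. GGGGATTCC was found in 4 of the 9, against 0.213% of all 32851 promoters in the table cut to the same 250 bases, and TTTCACTTC in 5 of the 9, against 0.402%. TGACG was found in 6 of the 9, against 17.8%, and CCAAT in 9 of the 9, against 33.8%. H2-Q7 held all 4 motifs and H2-Q6 held all but TGACG. A match to these letters describes the sequence and not a bound site.

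The libraries held 7404 to 9112 cell barcodes and 23574052 to 32321855 UMIs (unique molecular identifiers, which count captured mRNA molecules), with 2814 to 3244 UMIs in the median kept cell. Between 335 and 406 barcodes of each library also occurred in another library. Cells were placed into gates by the number of distinct marker transcripts of each type, since no cell annotation was used here, and the UMIs of each gate were summed per library. The 8 gates described here held 37720 of the 47122 kept cells. A further gate, eosinophils, with 10 to 42 cells per library, and 2036 T cells with neither or both of Cd4 and Cd8 transcripts were not tested. The B gate was the largest, with 3229 to 4534 cells per library, followed by CD8 T (614 to 1303), CD4 T (455 to 1108), NK (100 to 233), non-classical monocytes (56 to 205), neutrophils (58 to 193), classical monocytes (73 to 133) and platelets (36 to 75 barcodes with 706 to 809 median UMIs). Neutrophils and platelets are not mononuclear leukocytes, but their marker transcripts were present after the density gradient.

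Each member had its own pattern over the 8 gates, given here as CPM, a gene's UMIs over all UMIs of the gate on the usual CPM scale (mean ± SD over all 6 libraries). H2-K1 was highest in NK cells, 5089 ± 337 CPM (SD, n = 6), then in CD4 T cells, 4400.1 ± 332, and CD8 T cells, 4272 ± 327. It stood at 4129 ± 449 in non-classical monocytes, 3164 ± 319 in B cells, 1779 ± 173 in classical monocytes, 1370.3 ± 329 in neutrophils and 788 ± 213 in platelets. CD8 T cells were above non-classical monocytes in 4 of 6 libraries and neutrophils above platelets in 5 of 6, so these neighbours overlapped. The other 5 neighbouring pairs kept their order in all 6 libraries.

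H2-D1 was ordered differently: it was highest in non-classical monocytes (7276 ± 440.2 CPM), neutrophils (6024 ± 408) and NK cells (5388 ± 214). The B gate, the CD4 T and CD8 T gates and classical monocytes lay close together, at 3453 to 3869 CPM on average, and platelets were lowest at 2457 ± 758. Neutrophils, next to last for H2-K1, were second for H2-D1, although NK cells were above them in 1 of 6 libraries. B2m was highest in non-classical monocytes (7000.1 ± 689 CPM) and lowest in B cells (2572 ± 227), with platelets at 4613 ± 1580, overlapping NK cells at 4498 ± 399.

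H2-Q4, H2-Q6 and H2-Q7, all non-classical heavy chains, were highest in the lymphocyte gates. H2-Q7 was ordered from CD8 T cells (1168 ± 90.5 CPM) through NK cells (1022 ± 39.5), CD4 T cells (896 ± 73.2), B cells (433 ± 84.0) and non-classical monocytes (312 ± 101), each step in the same direction in all 6 libraries. It stood at 82.8 to 87.7 CPM on average in classical monocytes, neutrophils and platelets, which were not told apart. H2-Q6 was highest in NK cells (761 ± 36.3 CPM) and B cells (632 ± 75.6), and CD4 T cells held less of it (392 ± 40.1) than CD8 T cells (577 ± 20.3) in 6 of 6 libraries. H2-Q4 stood at 132 to 155 CPM on average in the 4 lymphocyte gates, at 59.0 in non-classical monocytes and at 28.0 to 29.8 in neutrophils and classical monocytes. H2-T23, the mouse counterpart of HLA-E whose product is bound by CD94-NKG2 receptors, ranged from 377 ± 23.7 CPM in B cells to 195 ± 108 in platelets, the smallest ratio of highest to lowest gate among the 10 genes (1.93-fold), and no neighbouring pair kept its order in all 6 libraries.

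Tap1 was highest in B cells (225 ± 33.7 CPM) and lowest in platelets (16.7 ± 13.3), and Tapbp was highest in classical monocytes (512 ± 79.4). Nlrc5 was highest in CD8 T cells (188 ± 30.7 CPM), followed by NK cells (155 ± 27.8) and CD4 T cells (154 ± 12.1), which changed places between libraries. It stood at 58.5 to 63.0 CPM on average in B cells and both monocyte gates, at 26.4 in neutrophils and at 10.5 in platelets. Nlrc5 and B2m had different orders: over the 8 gates the mean log2(CPM + 1) of Nlrc5 correlated with that of H2-K1 at Pearson r 0.93 and of H2-Q4 at 0.92, but with that of B2m at -0.045. Among the other members the r with Nlrc5 ran from 0.24 (H2-D1) and 0.54 (H2-T23) to 0.885 (H2-Q7). These values describe 8 gates that share the same 6 libraries. In the platelet gate Nlrc5 had 3 UMIs in Con and 0 in T2D, and H2-Q4 had 1 and 0. Among 3788 other genes with a mean of at least 50 CPM, those most like H2-K1 over the gates were Fxr2 (r 0.98), Tmc8 (0.98), Stip1, Il2rg and Mef2d (0.97 each), and those most like Nlrc5 were Egln1, Rdx, Scamp3, Ptpn22 and Sec11a (each 0.97).

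**Figure D1:**
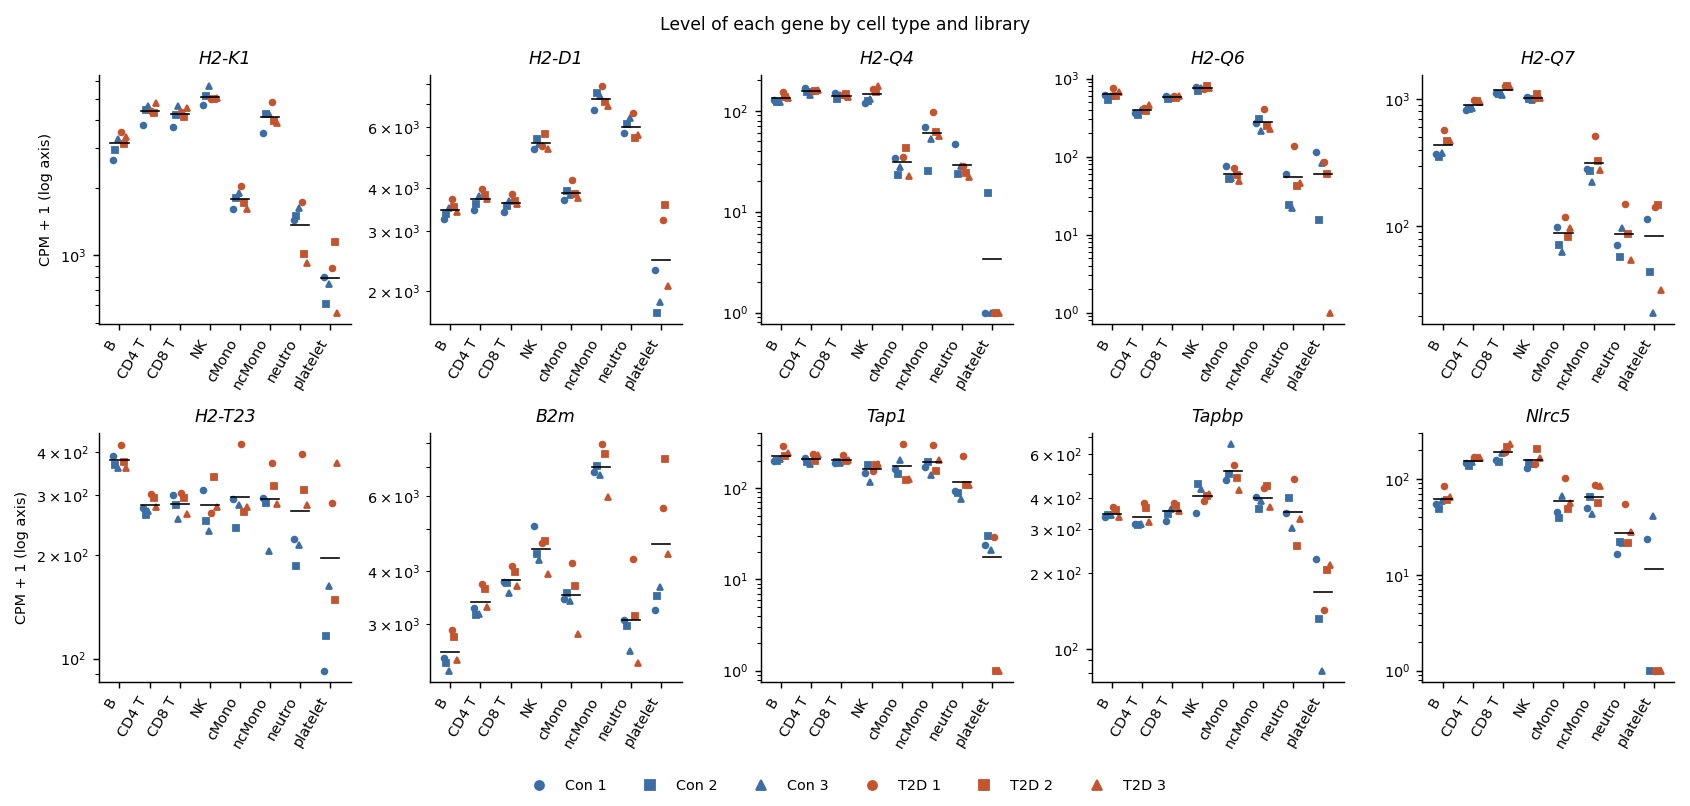
Level of each of the 10 genes (CPM + 1, log axis, a separate range per panel) in the 8 cell type gates; each symbol is 1 library, blue for Con and orange for T2D, and the black line is the mean of the 6 libraries. H2-Q4, H2-Q6 and H2-Q7 drop from the lymphocyte gates to classical monocytes and neutrophils, and H2-D1 and B2m are highest in non-classical monocytes. cMono and ncMono are classical and non-classical monocytes.

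With 6 libraries, the exact two-sided sign-flip permutation test of a neighbouring pair cannot go below p = 0.03125, which becomes 0.0754 after Benjamini-Hochberg adjustment over all 70 pairs, so no pair could pass 0.05. The order was the same in all 6 libraries for 29 of the 70 pairs, and for 25 of 70 with scaling for composition across all gates. That scaling placed H2-K1 highest in non-classical monocytes and both H2-D1 and H2-T23 highest in neutrophils, and left the highest gate of the other 7 genes as given above.

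The T2D and Con groups were then compared within each gate on the summed UMI counts (edgeR quasi-likelihood test, Benjamini-Hochberg adjustment over all genes tested in the gate). From here on values are CPM scaled by TMM, edgeR's correction for composition, over the genes tested in that gate. In B cells all 10 members passed the filter on low counts, and H2-Q7 was the 1 member called, beside 1.57% of the 11506 genes tested. H2-Q7 stood at 371, 353 and 377 CPM in the Con libraries and at 572, 473 and 453 CPM in the T2D libraries. Every T2D library was above every Con library, and the log2 fold change was 0.44 ± 0.08 (SE; edgeR adjusted p = 0.00925). Without Con 2 the change was 0.42 with an adjusted p of 0.0753, and without T2D 1, the highest library, it was 0.34 with an adjusted p of 0.00572.

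H2-Q6, whose promoter is printed above beside that of H2-Q7, stood at 617, 539.8 and 606 CPM in Con and 758, 614 and 661 CPM in T2D. The groups overlapped (0.21 ± 0.08, edgeR adjusted p = 0.215). H2-Q6 passed under 2 of 16 other settings, and whether its change differed from that of H2-Q7 was not tested. Of the sequences of 100 bases within the last 500 bases of H2-Q6 transcripts, 23.8% also occur in a transcript of another gene, most of them in H2-Q7, against 2.9% for H2-Q7, all in H2-Q5. The sources used here do not give how the authors' counting assigned reads that fit both genes, so the values of H2-Q6 and H2-Q7 are uncertain to that extent. Summed as 1 gene, the pair gave 0.30 ± 0.07 with an edgeR adjusted p of 0.0513.

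The other members in B cells all had fold changes above 0, from 0.03 for Tapbp to 0.35 for Nlrc5, and did not pass the test. An unadjusted edgeR p under 0.05 was found for 6 of the 10 members (H2-Q4, H2-Q6, H2-Q7, B2m, Tap1 and Nlrc5). The share of all genes with such an unadjusted p was not counted in any gate. The median over the 10 members was 0.17, against -0.0030 over all genes tested. Tap1, a chain of the TAP transporter, stood at 198, 200 and 208 CPM in Con and 286, 226 and 231 CPM in T2D, with no overlap (0.30 ± 0.08, edgeR adjusted p = 0.0808). Its adjusted p fell below 0.05 under 6 other settings, among them DESeq2 (0.0349), and without T2D 1 its change was 0.18 with an adjusted p of 0.128. Nlrc5 was at 54.3, 47.7 and 59.0 CPM in Con and at 83.9, 59.4 and 61.6 CPM in T2D (adjusted p = 0.323), and H2-Q4 at 128, 122 and 122 CPM against 153, 138 and 128 CPM (0.18 ± 0.06, adjusted p = 0.176). The T2D libraries lay above the Con libraries for these 2 genes as well, with the lowest T2D library close to the highest Con library. In all, 4 of 10 members had T2D above Con without overlap, where 9.76% of all genes tested in B cells did. Without T2D 1 the fold changes of the 9 members other than H2-Q7 lay between -0.04 (H2-T23) and 0.18 (Tap1), with Nlrc5 at 0.17, and without T2D 3 B2m passed at 0.24 (edgeR adjusted p = 0.0209). The classical genes H2-K1 (2687, 2958 and 3358 CPM against 3554, 3168 and 3281) and H2-D1 (3271, 3358 and 3529 against 3732, 3562 and 3298) overlapped.

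RNA of T and NK cells in the B gate also differed between the groups. The 7 T cell markers summed to 129 to 182 CPM in Con and 195 to 213 CPM in T2D, 2.38% and 2.83% of their level in the CD4 T gate, and all 7 had UMIs in every library. The 6 NK markers summed to 6.19 to 8.29 CPM and 9.09 to 14.1 CPM. Cd8a rose in the B gate from 6.78 to 11.1 CPM and Cd8b1 from 8.48 to 14.0 CPM, both receptors of T cells that bind class I. In B cells without any UMI of a T or NK marker, the change of H2-Q7 was 0.45 (edgeR adjusted p = 0.00819), an alternative chosen after seeing the data.

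H2-Q7 was also tested in the 6 Leiden clusters (groups of cells with similar transcriptomes) that made up most of the B gate, likewise after seeing the data. It rose in cluster 0, led by Lrrk2, Gpr174 and Cr2 (0.46, edgeR adjusted p = 0.000424), in cluster 1, led by Pxdc1, Tmem108 and Icosl (0.42, adjusted p = 0.00302), in cluster 5, led by Nedd4, Akap12 and Fam129c (0.71, adjusted p = 0.0255), and in cluster 7, led by Ighg2b, Sspn and S100a6 (0.38, adjusted p = 0.0285). In cluster 5 the Con libraries stood at 270.2, 216 and 267 CPM and the T2D libraries at 508, 413 and 312 CPM. Cluster 4, which transcripts of T cells and monocytes led (Ccl5, Cd8b1, Lyz2), gave 0.24 (edgeR adjusted p = 0.708). Cluster 8, led by the interferon-stimulated genes Ifit3, Slfn5 and Ifit2, gave 0.31 (edgeR adjusted p = 0.433). Tap1 rose in cluster 1 (0.34, adjusted p = 0.0108) and cluster 5 (0.54, adjusted p = 0.00509). No other member passed in any of the 6 clusters. The clusters are parts of the same B gate in the same 6 libraries, so their calls are not independent of the call in the gate. The share of all genes called in each cluster was not counted.

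**Figure D2:**
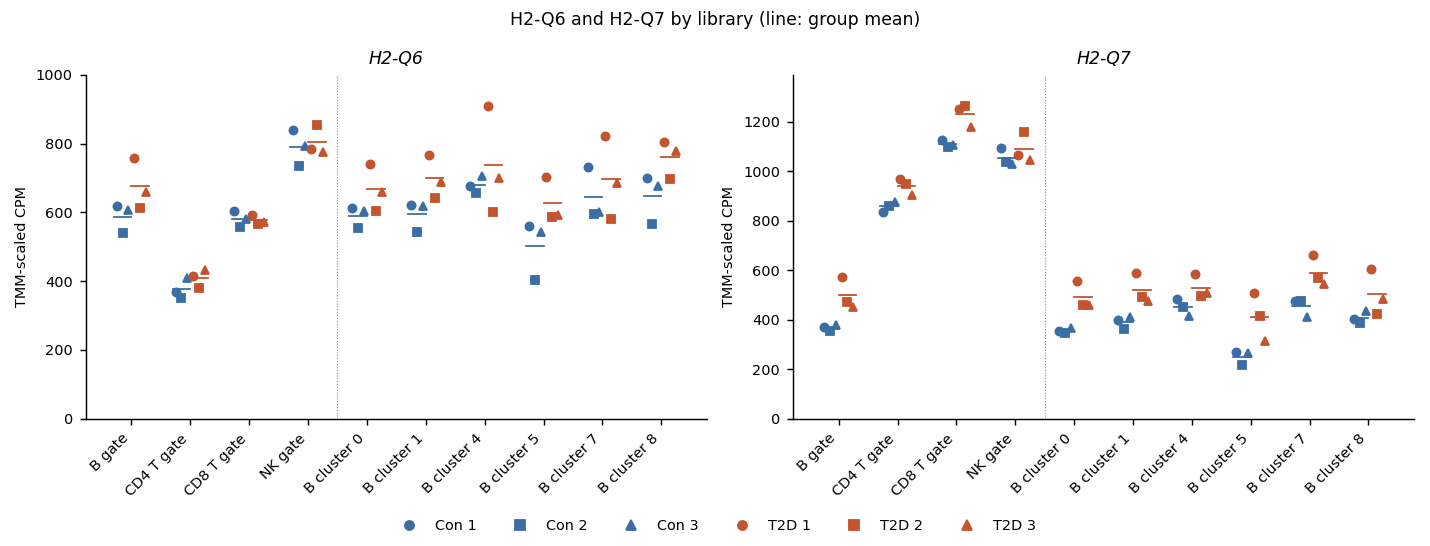
H2-Q6 and H2-Q7 in TMM-scaled CPM in 4 cell type gates (left of the dotted line) and in the 6 clusters of the B gate (right of it); each symbol is 1 library and each short line the mean of 3 libraries, blue for Con and orange for T2D. For H2-Q7 the T2D libraries of the B gate (453 to 572 CPM) lie above the Con libraries (353 to 377 CPM), while for H2-Q6 the groups overlap in the B gate.

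In CD4 T cells edgeR and DESeq2 called 0 of 10 members, and 0 had an unadjusted p under 0.05, beside 7.24% of the 9493 genes tested that edgeR called. H2-Q7 stood at 835, 860.5 and 877 CPM in Con and 970.1, 946 and 905 CPM in T2D without overlap, a log2 fold change of 0.13 ± 0.07 (edgeR adjusted p = 0.266). Nlrc5 did not overlap either, at 152, 141 and 153 CPM against 166, 161 and 156 CPM (0.11 ± 0.08). These were 2 of 10 members with T2D above Con, where 12.1% of all genes tested did. The fold changes of H2-K1 (-0.02 ± 0.07) and H2-D1 (0.01 ± 0.07) were smaller than their errors. With the stricter gate the fold change of H2-Q7 was -0.10 (adjusted p = 0.917). Without composition scaling (plain totals) H2-Q7 passed at 0.21 (adjusted p = 0.0297), but that scaling also turned the calls over all genes from 328 higher and 359 lower to 534 higher and 199 lower.

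CD8 T cells gave 1 called member, Nlrc5, beside 3.41% of the 10169 genes tested. Nlrc5 and H2-Q7 were the 2 members with an unadjusted edgeR p under 0.05. Nlrc5 stood at 162, 152 and 192 CPM in Con and at 191, 213 and 221 CPM in T2D, and the groups touched, with Con 3 just above T2D 1. The log2 fold change was 0.30 ± 0.08 (SE; edgeR adjusted p = 0.038), and the call rested on single libraries: leaving out Con 1 gave an adjusted p of 0.164, leaving out Con 2 gave 0.220, and leaving out T2D 2 or T2D 3 gave 0.127 or 0.110. DESeq2 gave 0.30 with an adjusted p of 0.075. Without CD8 T cells that had a UMI of an effector or regulatory gene (Ccl5, Gzmk, Gzma, Gzmb, Nkg7, Foxp3, Ikzf2 or Ctla4), 93 to 148 cells per library remained and the change was 0.23 (adjusted p = 0.738). Summed NK markers in the CD8 T gate were 101 to 118 CPM in Con and 137 to 155 CPM in T2D, and their part in the result was not tested.

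H2-Q7 in CD8 T cells stood at 1127, 1097 and 1105 CPM in Con and at 1252, 1264 and 1179 CPM in T2D. It was the 1 member without overlap there, where 10.5% of all genes tested had T2D above Con, and its change of 0.15 ± 0.06 did not pass (edgeR adjusted p = 0.173). It passed with plain totals (0.20, adjusted p = 0.0317), which moved the calls over all genes from 164 higher and 183 lower to 316 higher and 129 lower. The fold changes of the other 8 members lay between -0.04 and 0.09. H2-K1, at 3811, 4289 and 4774 CPM against 4327, 4138 and 4362 CPM, gave -0.01 ± 0.07.

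Whether the T2D effect itself differed between cell types was tested in 1 fit with B cells, with the library as a block. The effect on H2-Q7 was smaller in CD4 T than in B cells by 0.31 on the log2 scale (-0.31 ± 0.06, edgeR adjusted p = 0.00147) and smaller in CD8 T than in B cells (-0.28 ± 0.06, adjusted p = 0.00398). H2-K1 differed too, by -0.17 ± 0.04 in CD4 T (adjusted p = 0.0183) and by -0.15 ± 0.04 in CD8 T cells (adjusted p = 0.0436), although it was called in none of these gates alone. These were 2 of 10 members in each comparison, beside 3.62% of all genes tested for CD4 T and 1.14% for CD8 T. The H2-Q7 difference was -0.23 without T2D 1 in the CD4 T comparison (adjusted p = 0.0564) and -0.27 without Con 1 in the CD8 T comparison (adjusted p = 0.0689). For H2-K1 the call in CD4 T cells needed each of Con 1, Con 2, T2D 1 and T2D 3 (adjusted p up to 0.347 on leaving 1 out), and that in CD8 T cells needed every library but T2D 3 (adjusted p up to 0.238). Without the library block none of the 4 differences passed. The effect on H2-Q7 in NK cells against B cells was -0.37 ± 0.10 and did not pass (adjusted p = 0.0657), and no member passed for NK cells (0.355% of all genes did), classical (0.367%) or non-classical monocytes (0.3%), neutrophils (0.491%) or platelets (0.0188%).

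**Figure D3:**
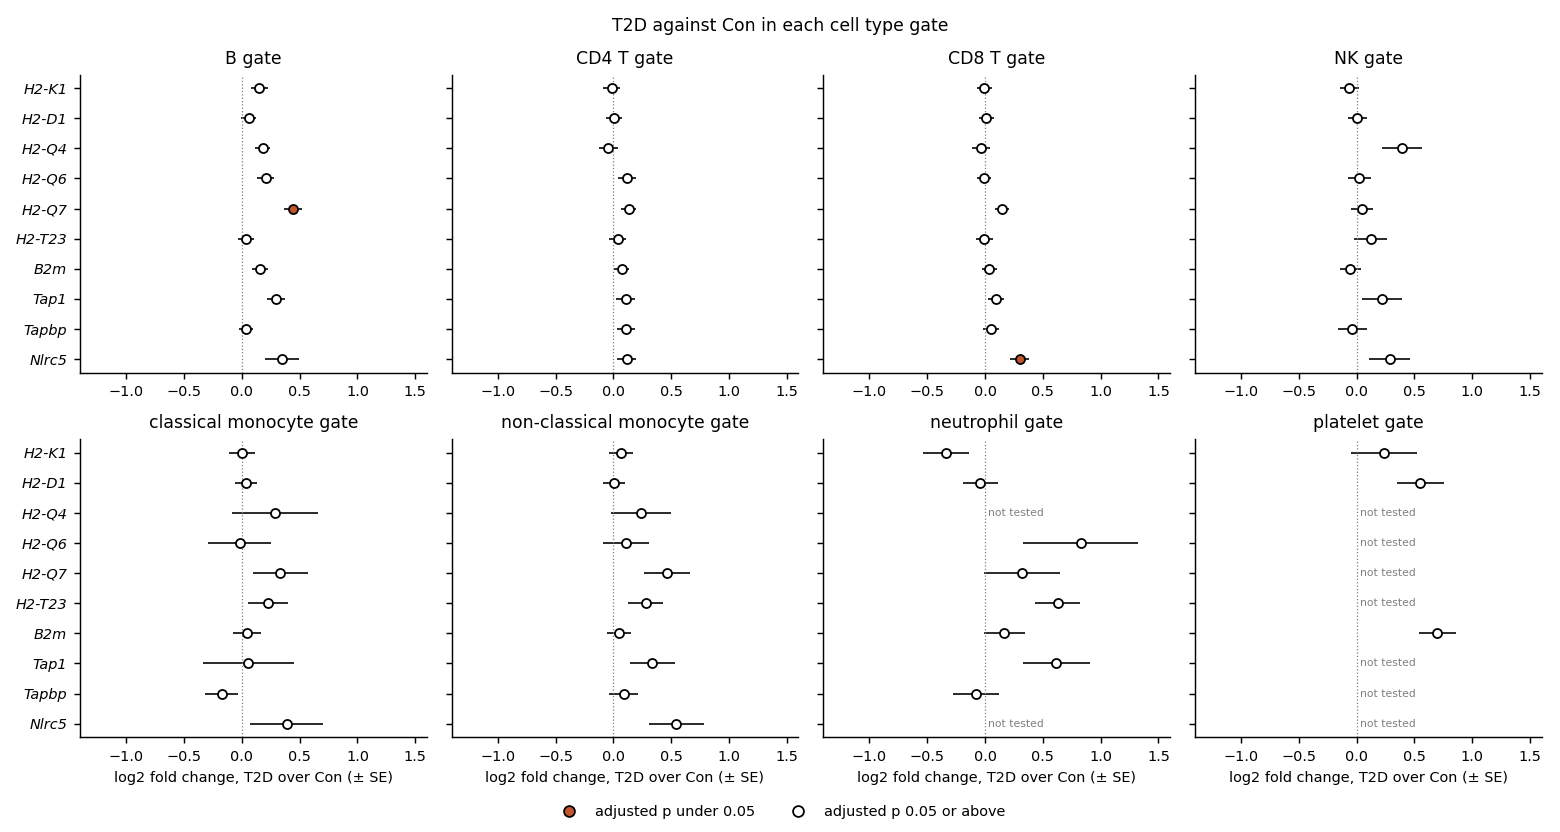
Log2 fold change of T2D over Con with its standard error for each of the 10 genes in the 8 gates; filled points have an edgeR adjusted p under 0.05. H2-Q7 in the B gate (0.44) and Nlrc5 in the CD8 T gate (0.30) are the filled points, and genes that did not pass the filter on low counts are marked as not tested.

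NK cells and monocytes gave 0 called members with edgeR and with DESeq2. An unadjusted edgeR p under 0.05 was found for 1 member in NK cells (H2-Q4), 0 in classical and 2 in non-classical monocytes (H2-Q7 and Nlrc5). NK cells, the cells that sense missing class I, had H2-K1 at 4994, 5385 and 5966 CPM in Con and 5248, 5270.2 and 5143 CPM in T2D (-0.06 ± 0.08), with 0.268% of 5970 genes called. Non-overlapping were H2-Q4 (127, 129.7 and 136 CPM against 172, 162 and 180.0 CPM, 0.39 ± 0.17, edgeR adjusted p = 0.545) and Nlrc5 (137, 151 and 149 CPM against 151, 219 and 170 CPM, adjusted p = 0.756), 2 of 10 members where 6.16% of all genes had T2D above Con. In classical monocytes, with 0.331% of 5736 genes called and T2D above Con for 6.08%, all 10 members overlapped, with fold changes from -0.17 (Tapbp) to 0.39 (Nlrc5). In non-classical monocytes, with 0.818% of 6603 genes called and T2D above Con for 6.6%, all 10 also overlapped. All 10 fold changes were above 0, and 6 of 10 without T2D 1. The highest there were Nlrc5 (0.54 ± 0.24, adjusted p = 0.508) and H2-Q7 (0.46 ± 0.20, adjusted p = 0.513). H2-Q7 read 287, 279.6 and 226 CPM in Con and 526, 332 and 275 CPM in T2D, and without T2D 1 its change was 0.20.

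In neutrophils 8 of the 10 members passed the filter, and edgeR and DESeq2 called 0, beside 2.95% of the 3624 genes tested with edgeR; H2-T23 and Tap1 had an unadjusted p under 0.05. H2-T23 stood at 237, 199 and 226 CPM in Con and 427, 328 and 288 CPM in T2D (0.63 ± 0.20, edgeR adjusted p = 0.0854), and Tap1 at 98.9, 94.0 and 80.1 CPM against 243, 113 and 112 CPM (0.62 ± 0.29, adjusted p = 0.384). These 2 of 8 did not overlap, where 8.36% of all genes had T2D above Con. H2-K1 read 1533, 1605 and 1718 CPM in Con and 1876, 1075 and 955 CPM in T2D: 2 T2D libraries were below all Con libraries and T2D 1 above them. The change was -0.34 ± 0.20 (adjusted p = 0.573) with T2D 1 and -0.68 ± 0.17 (adjusted p = 0.00642) without it. H2-Q4, with 30 UMIs in Con and 19 in T2D, and Nlrc5, with 18 and 24, did not pass the filter.

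T2D 1 was the highest of the 6 libraries for 10 of 10 members in B cells, 9 of 10 in non-classical monocytes, 7 of 10 in classical monocytes and 8 of 8 tested in neutrophils. It was highest for 6 of 10 in CD4 T cells, 4 of 10 in CD8 T cells and 0 of 10 in NK cells. In platelets T2D 1 was highest for 0 of 3 tested members and T2D 2 for 3 of 3. The summed plain CPM of 12 interferon-stimulated genes was also highest in T2D 1 in 7 of the 8 gates, all but NK cells. In neutrophils it was 2743 CPM in T2D 1, against 1151 and 966 in the other T2D libraries and 413 to 593 in Con. In B cells it was 382 CPM, against 322 and 327 in T2D and 271 to 303 in Con. Without T2D 1, 9 of 10 members in B cells and 3 of 8 in neutrophils had a fold change above 0, and the median over the members was 0.11 and -0.05. In non-classical monocytes 6 of 10 did (median 0.04), and in classical monocytes 3 of 10 (median -0.07). The counts were 6 of 10 in CD4 T, 4 of 10 in CD8 T and 7 of 10 in NK cells, and 3 of 3 in platelets. Whether interferon signalling in that library played a part in the levels of the class I genes was not tested.

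**Figure D4:**
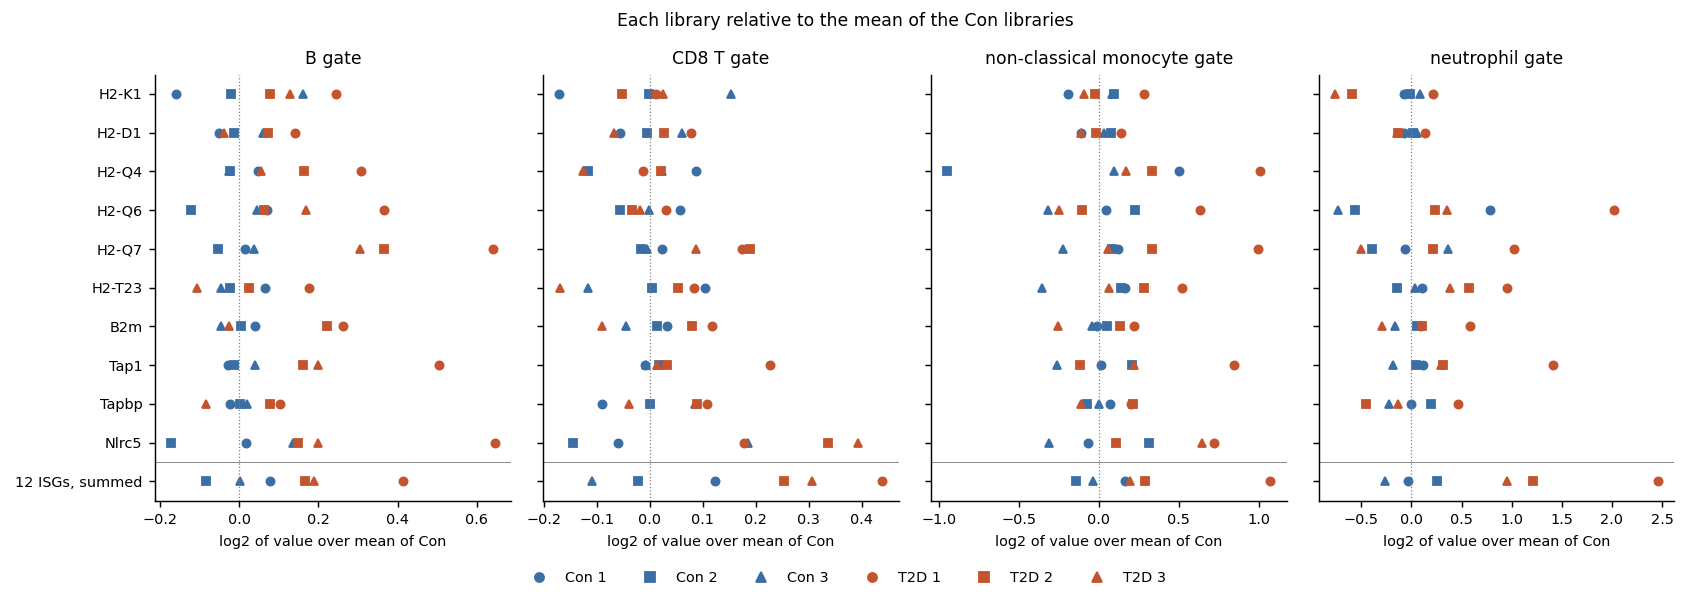
Each library relative to the mean of the 3 Con libraries (log2 of TMM-scaled CPM over that mean) for the 10 genes in 4 gates, with the 12 interferon-stimulated genes (ISGs, summed plain CPM) in the bottom row; the ranges of the x axes differ. T2D 1 (orange circle) is the highest library for all 10 genes in the B gate and all 8 genes tested in the neutrophil gate, and is also highest for the ISGs in the 4 gates.

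In platelets 3 of the 10 members passed the filter on low counts. B2m had 142, 241 and 181 UMIs in the Con libraries and 198, 249 and 142 in T2D. H2-D1 had 101, 120 and 92 against 114, 121 and 67, and H2-K1 had 35, 42 and 37 against 31, 39 and 18. The remaining 7 did not pass the filter: over all 6 libraries H2-Q4 had 1 UMI, and over the Con and T2D libraries Nlrc5 had 3 and 0, Tap1 4 and 1, H2-Q6 10 and 5, H2-Q7 9 and 11, Tapbp 23 and 19, and H2-T23 20 and 27. H2-T23 passed the filter under 6 other settings, with fold changes of 0.39 to 1.33, and Tapbp under 2, with 0.28 and 0.65, and neither was called in any of them.

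B2m in platelets stood at 4608, 4536 and 4851 CPM in Con and at 7258, 9863 and 5590 CPM in T2D. Every T2D library was above every Con library, and the log2 fold change of 0.70 ± 0.16 had an edgeR adjusted p of 0.106, with 0% of the 654 genes tested called by edgeR. It was the 1 of 3 tested members without overlap, where 6.42% of all genes tested had T2D above Con. DESeq2 also called 0 of the 3 members, of which B2m and H2-D1 had an unadjusted edgeR p under 0.05. Leaving out 1 library at a time, the change of B2m ranged from 0.47 (without T2D 2, adjusted p = 0.178) to 0.90 (without T2D 3, adjusted p = 0.0102), with adjusted p up to 0.337. H2-D1 read 3277, 2259 and 2466 CPM in Con and 4179, 4793 and 2637 CPM in T2D (0.55 ± 0.20, adjusted p = 0.562), and H2-K1 gave 0.24 ± 0.28 (adjusted p = 0.901).

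A wider set of platelet barcodes gave other calls. All 512 cells of the cluster that held the platelet gate were taken, 65 to 111 per library. H2-D1 changed there by 0.92 (edgeR adjusted p = 0.000867) and H2-K1 by 1.12 (edgeR adjusted p = 0.00755). These were the 2 genes called of the 1177 tested in that set. The narrower gate, with at most 1 marker of any leukocyte list, did not give these calls. Leukocyte RNA was present even in the narrow gate. The 7 neutrophil markers summed to 794 to 4241 CPM in Con and 30.8 to 735 CPM in T2D. The T cell markers summed to 217 to 365 and 294 to 431 CPM. The B cell markers summed to 159 to 525 and 235 to 368 CPM. Classical monocyte markers stood at 2325 to 2644 and 1756 to 2912 CPM, 5.93% and 5.43% of their level in their own gate. NK markers stood at 0 to 45.6 and 28.3 to 30.8 CPM, and non-classical monocyte markers at 40.4 to 57.8 and 0 to 88.2 CPM. The part of this RNA in the platelet values was not tested. A change in leukocyte RNA and a change in class I transcripts per platelet were not separated in such sums.

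**Figure D5:**
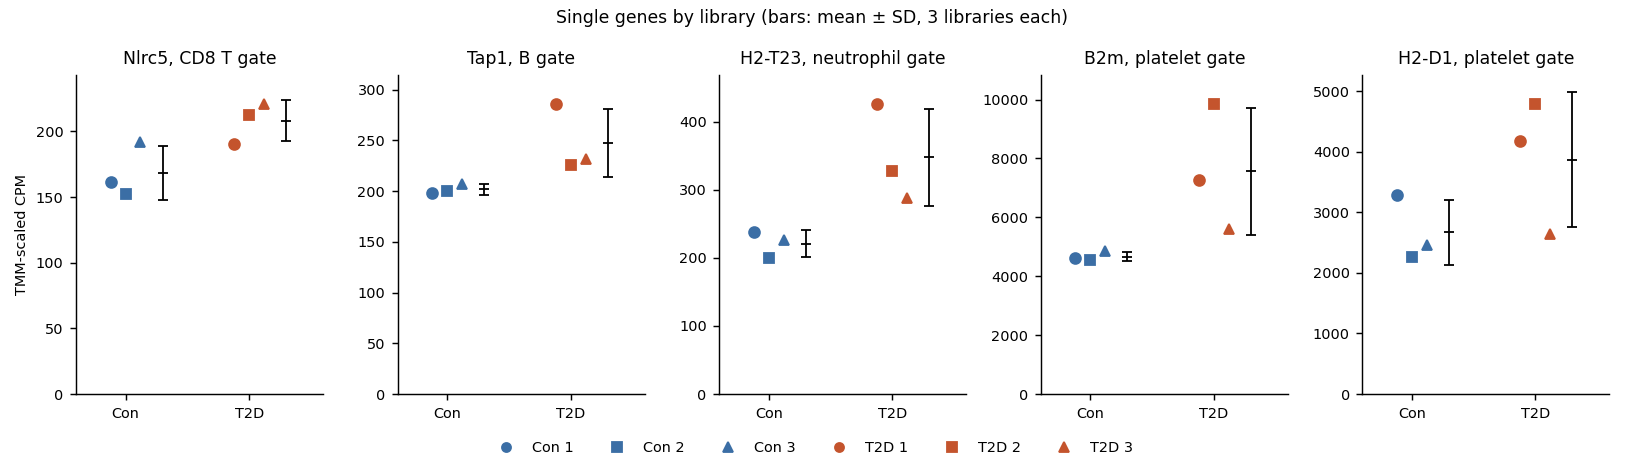
TMM-scaled CPM by library for Nlrc5 in CD8 T cells, Tap1 in B cells, H2-T23 in neutrophils, and B2m and H2-D1 in platelets (y axes from 0); symbols are libraries and the black bars give mean ± SD of 3 libraries. Of the 5, only Nlrc5 passed the test, although Con 3 (192 CPM) lies just above T2D 1 (191 CPM), and H2-D1 in platelets also overlaps.

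Summed over all kept cells, H2-Q7 (539, 549 and 592 CPM in Con, 800.2, 713 and 720.0 CPM in T2D) rose by 0.41 ± 0.07 (edgeR adjusted p = 0.0147) and Nlrc5 (83.7, 82.5 and 100.4 CPM against 124, 116 and 124 CPM) by 0.45 ± 0.08 (adjusted p = 0.0196), beside 4.36% of the 13619 genes tested. These 2 and Tap1 did not overlap, where 13.6% of all genes had T2D above Con. Both calls were lost without Con 1 (adjusted p = 0.0587 and 0.0762) and without Con 2 (0.0832 and 0.0916), and that of Nlrc5 without T2D 3 (0.0785). These sums follow the make-up of the blood: the B gate held 56.3 to 58.2% of the kept cells in Con and 41.2 to 49.4% in T2D, the CD8 T gate 8.40 to 11% and 14.4 to 15.1%, and Nlrc5 and H2-Q7 are higher in T than in B cells. Without the B gate the changes were 0.25 (adjusted p = 0.224) and 0.30 (adjusted p = 0.204). In such sums a shift of cell numbers and a change within cells cannot be told apart.

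Some genes that work with the members, in lists chosen with earlier results of these data known, passed the test. The share of all genes called by edgeR was 1.57% in B cells, 7.24% in CD4 T cells, 3.41% in CD8 T cells and 2.95% in neutrophils. Of 11 peptide loading and processing genes, Psmb8, a catalytic subunit of the immunoproteasome, rose in CD4 T cells from 232 ± 24.6 to 303 ± 29.2 CPM (SD, n = 3 each; 0.38, edgeR adjusted p = 0.00271), and Pdia3, the disulfide isomerase of the loading complex, from 285 ± 13.6 to 334 ± 4.33 CPM (0.23, adjusted p = 0.0476). None of the 11 passed in B or CD8 T cells, where the medians were 0.09 and 0.06. Of the other class I genes 8 of 11 were in the tables and 6 were tested in CD8 T cells, where H2-Q10 rose from 27.6 ± 3.78 to 48.3 ± 7.06 CPM (0.80, adjusted p = 0.000405). Sequence shared between H2-Q10 and other H2-Q genes was not examined.

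Of 16 regulators, Irf9, a transcription factor of the interferon response, rose in B cells (113 to 138 CPM, 0.29, edgeR adjusted p = 0.0274) and CD4 T cells (0.29, adjusted p = 0.0376). Stat2 rose in CD4 T cells (0.45), CD8 T cells (0.58, adjusted p = 0.00221) and neutrophils (1.23), Irf1 in CD8 T cells (173 to 236 CPM, 0.45, adjusted p = 0.000838) and Irf7 in neutrophils (1.22, adjusted p = 0.0249). None fell. Of the 12 interferon-stimulated genes, 2 rose in B cells (Gbp7 and Zbp1), 4 in CD4 T cells (Igtp, Iigp1, Gbp2 and Gbp7), 4 in CD8 T cells (Igtp, Gbp2, Gbp7 and Xaf1) and 1 of 6 tested in neutrophils (Rtp4, 148 to 354 CPM), and none fell. Their medians were 0.25, 0.21, 0.27 and 1.13, against medians of 0.019 or less over all genes tested in these gates. How far the calls of list genes rest on T2D 1 or another single library was not tested.

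Of the 12 receptors that bind class I, Pirb, an inhibitory receptor of B and myeloid cells, fell in B cells from 41.0 ± 1.91 to 29.0 ± 3.29 CPM (-0.49, edgeR adjusted p = 0.00806). Klrc1, which encodes NKG2A, had 20 UMIs in Con and 58 in T2D in the B gate, and 14 and 136 in the CD4 T gate. In both gates 0 of 3 Con libraries and 3 of 3 T2D libraries reached the level of the filter on low counts, so the gene entered the test through the group where it is high and its calls are not counted here. In CD4 T cells Klrd1, which encodes CD94, rose from 39.3 ± 4.88 to 70.4 ± 11.1 CPM (0.82, adjusted p = 4.5e-05), where NK markers summed to 7.59 to 17.6 CPM in Con and 14.1 to 26.7 CPM in T2D. In CD8 T cells Cd8b1, a subunit of the CD8 co-receptor and also used for the gate, rose by 0.25 (adjusted p = 0.0156). None of the 9 receptors tested in NK cells passed.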

How the data were processed

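Mouse peripheral blood cells were profiled by single-cell RNA sequencing of 3′ ends (BD Rhapsody, per the labels). The authors deposited unnormalized UMI counts, a gene-by-barcode matrix per library. CASAVA 1.8, UMI-tools, Seurat and the mm10 build are named in the submitters' processing notes; no aligner, annotation or strand setting is named there (not given in the sources used here), so reads of overlapping antisense genes cannot be told apart. Requiring 200 genes and allowing 20% mitochondrial UMIs left 49025 of 49407 barcodes, and 1903 likely doublets, scored against simulated pairs, were left out, leaving 47122 cells.

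A cell entered a gate with at least 4 distinct markers of its list (3 for NK cells and platelets) and at most 2 of any other list (1 for platelets); 37720 of the 47122 cells fell in the 8 gates described. The eosinophil gate (143 cells) and 2036 T cells with neither or both of Cd4 and Cd8 were left out. CD4 T and CD8 T cells were T cells with Cd4, or with Cd8a or Cd8b1. Gate numbers were set after cells were seen. Counts were summed per library and gate and tested with edgeR 4.0.16 (TMM, filterByExpr, robust quasi-likelihood fit, Benjamini-Hochberg adjustment over all genes tested, threshold 0.05) in R 4.3.3, without a block. DESeq2 1.42.0 was an alternative. Cells were processed in Python 3.11.15 with numpy 2.4.6, scipy 1.17.1, scikit-learn 1.9.0 and leidenalg 0.10.2. Other alternatives were plain totals, DESeq2 size factors, no filter on low counts, a stricter gate, cluster classes, doublets kept, cells without platelet UMIs, each library left out, and a replicate block.

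The 10 genes and the lists were chosen with earlier results of these data known. The genes named are the 10 members, list genes past the threshold, and the 5 genes most like H2-K1 and Nlrc5. No 2 libraries agreed within sampling noise. On simulated counts, the test called 48.9% of genes changed by 0.5 and 93.5% of those changed by 1 (log2) in B cells (11506 genes), 42.4% and 87.5% in CD8 T cells (10169 genes), and 34.1% and 83.8% in platelets (654 genes). It also called 6, 2 and 5 unchanged genes. All genes were drawn with the same fixed dispersion. In platelets 90 and 110 of the 654 genes were changed, whereas edgeR called 0 in the data. The percentages can therefore overstate the power in the data.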

Additional observations from a re-analysis of the deposited data

Results flagged for a closer look

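The T2D effect on 2 of the 10 class I genes differed between cell types in the test of the difference itself (edgeR, library as a block), beside 3.62% of all genes tested for CD4 T and 1.14% for CD8 T cells against B cells. For H2-Q7 the log2 fold change in CD4 T cells was lower than in B cells (-0.31, adjusted p = 0.00147), and so was that in CD8 T cells (-0.28, adjusted p = 0.00398). For H2-K1 the difference was -0.17 in CD4 T cells (adjusted p = 0.0183) and -0.15 in CD8 T cells (adjusted p = 0.0436). Leaving out 1 library at a time, H2-Q7 ranged from -0.34 to -0.23 for CD4 T and from -0.34 to -0.20 for CD8 T cells, and H2-K1 from -0.20 to -0.12 and from -0.18 to -0.12. The adjusted p reached 0.0564 (H2-Q7, CD4 T), 0.0689 (H2-Q7, CD8 T), 0.347 (H2-K1, CD4 T) and 0.238 (H2-K1, CD8 T), so each call was lost without at least 1 library, and all 4 were lost with no library block.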

How the results depend on the processing

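The number of members called in B cells was 1, and became 2 with DESeq2, 4 with no filter on low counts, 2 with plain totals, 0 with the stricter gate (121 to 338 cells per library), and, chosen after seeing the data, 2 in B cells without T or NK UMIs and 0 with H2-Q6 and H2-Q7 summed. In CD4 T cells 0 became 1 with plain totals. In CD8 T cells 1 became 0 with DESeq2, 2 with plain totals and 0 without effector and regulatory T cells. In platelets 0 became 2 with cluster classes. Over all kept cells 2 became 1 with H2-Q6 and H2-Q7 summed and 0 without the B gate. The differences from B cells, 2 called for CD4 T and 2 for CD8 T cells, became 0 and 0 with no library block. Leaving out 1 library at a time gave 0 to 2 members in B cells and over all kept cells, 0 to 1 in CD8 T cells, neutrophils and platelets, and 0 in CD4 T cells; the cause of these changes was not tested. Of 242 alternative values of 18 single-gene results, 191 kept their direction and side of the threshold, 32 lost the call, 17 gained it and 2 changed sign. These 2, called in neither fit, were H2-Q7 in CD4 T cells with the stricter gate (-0.10) and H2-K1 in platelets without T2D 2 (-0.043; 0.50 at most without another library); the cause was not tested.

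With a replicate block, 3 members were called in B cells (H2-Q7; H2-Q6, 0.20, adjusted p = 0.0277; Tap1, 0.29, adjusted p = 0.0277) and 1 in platelets (B2m, 0.67, adjusted p = 0.0269). The deviations of same-numbered libraries correlated at 0.031, 0.046 and 0.11 in B cells, and in no gate did all 3 pass 0.1. Over all kept cells the 3 correlations were -0.25, 0.41 and 0.29. The block raised the number of genes called in B cells from 181 to 463. Whether same-numbered libraries were handled together is not given in the labels and was not tested. Every library correlated best with its own number in B cells, CD8 T cells and non-classical monocytes.

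Over all genes, the number called (edgeR) went from 181 to between 6 (stricter gate) and 496 (no filter) in B cells, from 687 to between 17 (stricter gate) and 886 (replicate block) in CD4 T cells, from 347 to between 17 (without effector and regulatory cells) and 535 (no filter) in CD8 T cells, from 16 to between 10 and 33 in NK cells, from 19 to between 6 and 54 in classical and from 54 to between 23 and 88 in non-classical monocytes, from 107 to between 44 and 166 in neutrophils, from 0 to at most 4 in platelets and from 594 to between 34 and 962 over all kept cells. The stricter gate could be run only for B and CD4 T cells. Depth limits platelets most, with 32452 to 69255 UMIs per library. With no filter the median of all genes moved by 0.34 in platelets.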
